A study of Mus musculus with 8 samples.

Results

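Cyclins of the cell cycle were followed across the arrays of 3 cell lines that divide in different patterns. The members were the transcripts of 9 genes, chosen by symbol: Ccnd1, Ccnd2 and Ccnd3 as G1 cyclins, Ccne1, Ccne2 and Ccna2 as cyclins of S phase and its entry, and Ccnb1, Ccnb2 and Ccnf as G2/M cyclins. They are 9 of the 15653 genes that could be named on the arrays. Their RefSeq transcripts held 12 rows of the value table. Rows with identical values were counted once, which left 9 distinct probe sets, 1 for each gene, and none of these shared its values with a row of another gene.

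Cyclins are the regulatory subunits of the cyclin-dependent kinases (CDKs), and most of them accumulate and are destroyed once in each division cycle. D-type cyclins respond to growth signals and act with Cdk4 and Cdk6 in G1, E-type cyclins act with Cdk2 at entry into S phase, cyclin A2 acts in S phase and G2, and B-type cyclins act with Cdk1 in mitosis. In proliferating fibroblasts the transcripts of the later cyclins are cell cycle genes themselves, repressed in quiescent cells by the RB family and its partners.

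All 3 lines are mouse fetal fibroblast lines without endogenous p53, and each was grown for 48 h with 65 µM ZnCl2 and 5 µg/ml puromycin. Ind-8 cells (ASYM, 3 arrays) hold a p53 cDNA that zinc turns on through a modified human metallothionein promoter, and then self-renew asymmetrically, with a cycling and an arrested sister from each division. Con-3 cells (SYM, 3 arrays) make no p53 and divide symmetrically. The labels call them the parent of Ind-8, whereas the study's methods describe a line with the vector alone. The tI-3 cells (p53SYM, 2 arrays) derive from Ind-8, are labelled as also expressing an IMPDH II cDNA constitutively, and divide symmetrically with p53 present. Their medium also held G418, at 1 µg/ml per the labels, where the methods give the same figure in mg/ml. Each state is 1 line, so state and line cannot be told apart. The replicates were independent preparations of cells per the methods.

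Values are deposited log2 values of the RMA method, in which a difference of 1 is a doubling. Array medians ran from 6.12 to 6.19, and the number of arrays limits the precision. SYM replicate 3 stood apart in its control probe sets: the 5′ probe set of 18S ribosomal RNA read 10.97 there, against 4.55 to 5.25 on the other 7 arrays. The mean of the 18 hybridization controls was 9.95, 9.88 and 9.89 in ASYM, 9.94, 10.00 and 10.44 in SYM and 10.24 and 10.46 in p53SYM. Calls of the cyclins that were lost without SYM replicate 3 are therefore stated, the count of genes called over all lists is given with and without it, and a fit that blocks on a high or low mean of these controls (the hybridization-control block) is named beside each gene whose call it ended. In ASYM against SYM that block gives the same values as leaving out SYM replicate 3, because no ASYM array is at the higher level. In ASYM against p53SYM it leaves the estimate to rest on SYM replicate 3 as the link between the levels. In p53SYM against SYM it sets the p53SYM arrays against SYM replicate 3 alone, the array that stood apart, with the spread pooled over the states. Leaving out either p53SYM replicate leaves 1 array of that state, and limma then called fewer of all probe sets in each comparison. Whether a call lost in those fits is particular to its gene was not tested. A sign of RNA quality also followed the states: the 3′ minus the 5′ probe set of Actb was 0.141 to 0.192 in ASYM, 0.110 to 0.135 in SYM and 0.058 to 0.070 in p53SYM, with no overlap, whereas that of Gapdh was −0.215 to −0.109, −0.213 to −0.184 and −0.206 to −0.205 in the same order. The part of these control levels in the cyclin differences was not tested.

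**Figure D1:**
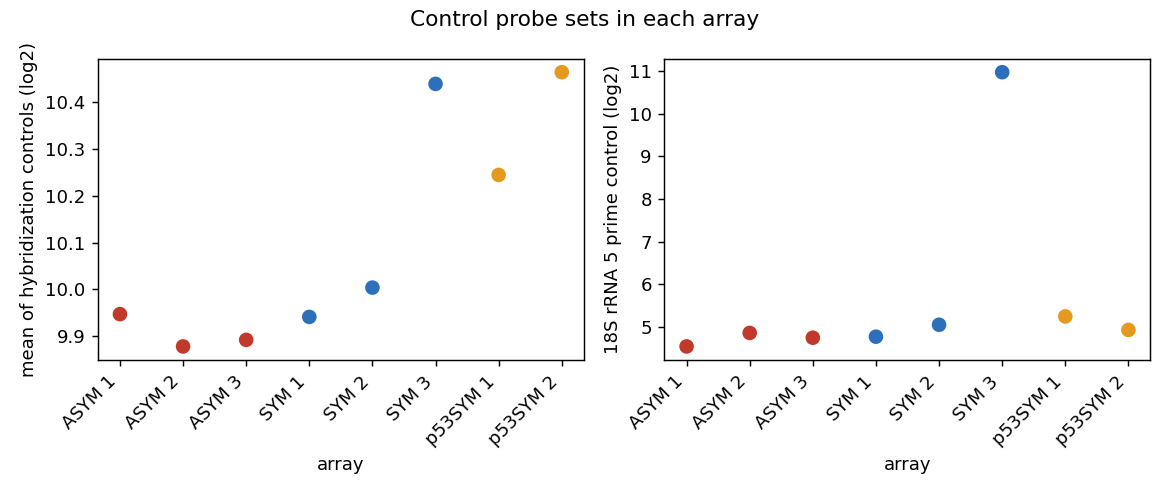
Mean log2 value of the hybridization controls (left) and log2 value of the 5′ probe set of 18S ribosomal RNA (right) on each array, 1 point per array, coloured by state. SYM replicate 3 reads 10.97 for 18S ribosomal RNA and shares the higher hybridization-control level with both p53SYM arrays.

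The labels were checked first. Trp53 read 5.68, 5.87 and 5.80 in ASYM, 5.21, 5.29 and 5.27 in SYM and 5.60 and 5.69 in p53SYM, so both lines with the p53 cDNA were above SYM in every array; whether its probes lie in the cDNA was not tested. Its log2 difference from SYM was 0.53 in ASYM (limma adjusted p = 0.00192) and 0.39 in p53SYM (0.0144), and the latter was not called without p53SYM replicate 2 (0.34, 0.109) or with the hybridization-control block (0.38, 0.101). Impdh2 read 12.16, 12.19 and 12.22 in ASYM, 12.51, 12.56 and 12.53 in SYM and 12.34 and 12.38 in p53SYM, so p53SYM, the line labelled with the IMPDH II cDNA, was above its parent ASYM and below SYM in every array; where its probes lie was likewise not tested. Its difference was called in ASYM against SYM (−0.34, limma adjusted p = 0.0108) but not in ASYM against p53SYM (−0.17, 0.163) or p53SYM against SYM (−0.17, 0.182). Impdh1 lay between 7.84 and 8.19 on all 8 arrays. The zinc-induced genes Mt1 and Mt2 lay between 12.94 and 13.95 on all 8 arrays. Mt2 fell in p53SYM against SYM (−0.39, limma adjusted p = 0.0248), but was not called without SYM replicate 2 (−0.33, 0.0867) or p53SYM replicate 2 (−0.26, 0.217), with the block (−0.32, 0.198) or with arrays quantile-normalized again (−0.18, 0.253). Of 10 fibroblast markers, 2 had a mean in the dimmest 25% of probe sets, and Vim was the most abundant at a mean of 13.89. The summed level of the fibroblast markers, as the log2 of their summed linear values, was 15.12, 15.24 and 15.27 in ASYM, 14.78, 14.90 and 14.98 in SYM and 14.72 and 14.70 in p53SYM. Summed in the same way, 6 epithelial, 4 endothelial, 5 haematopoietic and 3 skeletal muscle markers lay between 6.58 and 7.26 on every array. Their most abundant genes were Krt5, Kdr, Cd3e and Des, and 4, 3, 3 and 0 of these lists' markers had a mean in the dimmest 25% of probe sets. The endothelial sum was 6.58 to 6.72 in ASYM, 6.85 to 7.01 in SYM and 7.15 to 7.26 in p53SYM. The haematopoietic sum was 6.74 to 6.79, 6.78 to 6.94 and 7.11 to 7.14. Limma called 3 haematopoietic and 1 endothelial marker lower in ASYM against p53SYM. It called 1 endothelial marker lower in ASYM against SYM, and 1 of each list higher in p53SYM against SYM. No epithelial or skeletal muscle marker was called. The fibroblast sum was highest in ASYM, but it follows its brightest genes and the 10 markers did not move one way. Limma called 2 higher and 1 lower in ASYM against SYM, with a median of 0.20; the latter was Thy1 (−0.30, adjusted p = 0.0448), not called under 11 of 15 alternatives. In ASYM against p53SYM 5 were higher and 1 lower, with a median of 0.32, and 2 were higher with the block. In p53SYM against SYM 3 were higher and 3 lower, with a median of −0.060, and the lowest was Col3a1 (−2.68, limma adjusted p = 0.000621). At most 1 of them was called higher there without any single SYM or p53SYM array or with the block, and 2 were called lower without p53SYM replicate 1. Thy1 and Col3a1 were named after their values were seen. The part of these markers in the cyclin differences was not tested.

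The G1 cyclins Ccnd1 and Ccnd2 rose in ASYM against SYM, and Ccna2, Ccnb1 and Ccnb2, which act from S phase to mitosis, fell. The arrays measured whole cultures, so fewer cells in a phase and less transcript per cell cannot be told apart. These 5 of the 9 cyclins were called by limma at an adjusted p under 0.05, beside 21.9% of all 22523 probe sets, with 2 higher beside 10.9% and 3 lower beside 11.0%. The count was 3 without ASYM replicate 2, SYM replicate 2 or SYM replicate 3, beside 15.5%, 16.9% and 16.2% of all probe sets. Ccna2, Ccnb1 and Ccnb2 were called in each of these fits. The arrays of the states did not overlap for 6 of the 9, beside 38.0% of all probe sets, with 2 higher in ASYM beside 16.2% and 4 lower beside 21.8%. The rank product test called 0 of the 9 at a percent false positive (pfp) under 0.05, beside 3.65% of all probe sets (2.22% higher, 1.43% lower), whereas 4 had an unadjusted permutation p under 0.05 in it and 6 had one by limma. The lowest pfp was 0.0561, for Ccna2.

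Against p53SYM, the other symmetric state, Ccnd2 rose in ASYM, and Ccna2 and Ccnb1 fell. These 3 of the 9 were called by limma, beside 31.1% of all probe sets, with 1 higher beside 15.6% and 2 lower beside 15.5%. None of them was called with the hybridization-control block: limma called 0 of the 9 there, beside 3.14% of all probe sets, and 2 had an unadjusted p under 0.05. The arrays did not overlap for 6 of the 9, beside 60.3%, with 3 higher in ASYM beside 25.8% and 3 lower beside 34.5%. Rank product called 0 of the 9, beside 2.02% of all probe sets (1.59% higher, 0.435% lower), and 2 had an unadjusted permutation p under 0.05 in it, against 5 by limma.

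Between the symmetric states, Ccnb2 and Ccnd3 were lower in p53SYM than in SYM. These were the 2 of the 9 called by limma, beside 25.4% of all probe sets and 15.1% called lower. Called higher by limma were 0 of the 9, beside 10.2%, with 0 at an unadjusted p under 0.05 and 0 by rank product. The count of 2 was 1 without ASYM replicate 1 or 3, without any SYM replicate and without p53SYM replicate 1, and Ccnb2 was the cyclin called in each of these fits. Arrays did not overlap for 5 of the 9, beside 51.6%, with 1 higher in p53SYM beside 25.7% and 4 lower beside 25.9%. Rank product called 0 of the 9, beside 2.31% of all probe sets (0.635% higher, 1.67% lower), and 1 had an unadjusted permutation p under 0.05 in it, against 2 by limma. The 3 comparisons share arrays, so their values are given side by side and are not independent of each other.

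**Figure D2:**
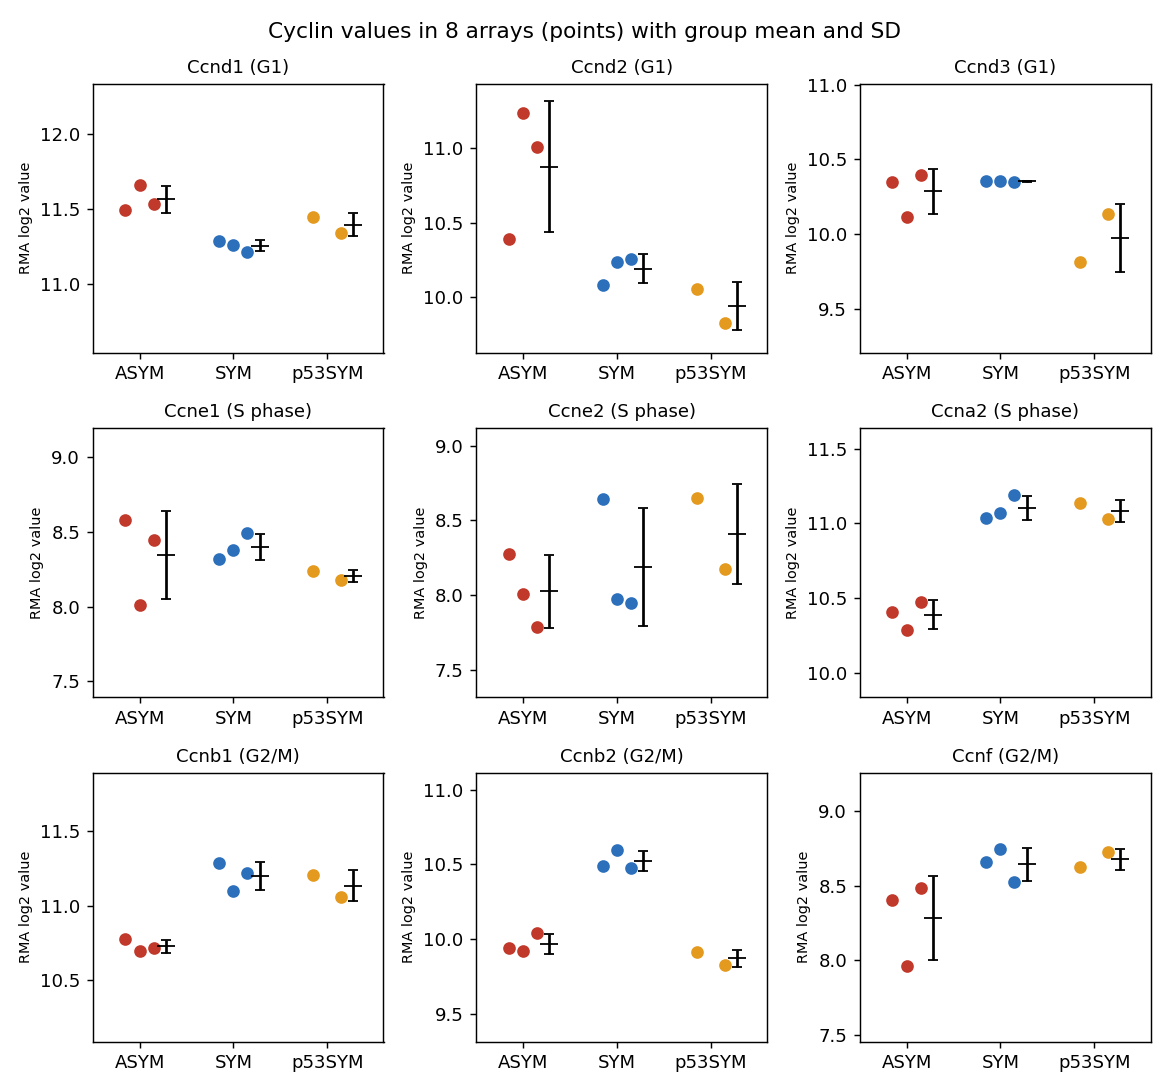
RMA log2 values of the 9 cyclins on the 8 arrays, 1 point per array, with the mean and SD of each state beside the points; every panel spans the same number of log2 units. The ASYM points of Ccna2 and Ccnb1 lie below all others, those of Ccnd1 and Ccnd2 lie above all others, and Ccnb2 is low in both lines with the p53 cDNA.

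**Figure D3:**
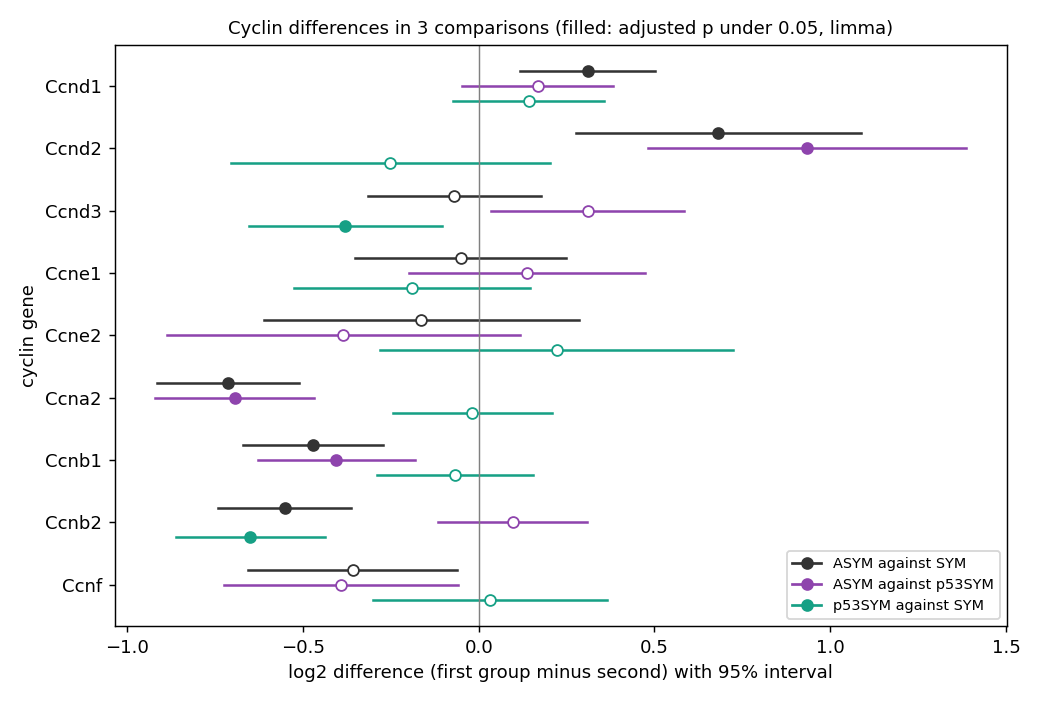
Log2 differences of the 9 cyclins in the 3 comparisons (first state minus second) with 95% confidence intervals from limma; filled points have an adjusted p under 0.05. The filled points are 5 in ASYM against SYM, 3 in ASYM against p53SYM and 2 in p53SYM against SYM.

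Ccnd1, the D-type cyclin most tied to growth factor signals in fibroblasts, read 11.49, 11.66 and 11.54 in ASYM, 11.29, 11.26 and 11.22 in SYM and 11.45 and 11.34 in p53SYM. All ASYM arrays lay above all SYM arrays and above both p53SYM arrays. In ASYM against SYM the state means of 11.56 ± 0.088 (SD, 3 arrays) and 11.25 ± 0.036 (SD, 3 arrays) gave a log2 difference of 0.31 (SE 0.0864, limma adjusted p = 0.0272). This call was lost without ASYM replicate 2 (0.26, limma adjusted p = 0.101), ASYM replicate 3 (0.32, 0.0560), SYM replicate 2 (0.31, 0.0744) or SYM replicate 3 (0.29, 0.0797). Neither comparison with p53SYM was called: the log2 difference of ASYM against p53SYM was 0.17, with a 95% interval from −0.046 to 0.38, and was 0.11 with the hybridization-control block and 0.062 with arrays quantile-normalized again. That of p53SYM against SYM was 0.14, with a 95% interval from −0.073 to 0.36; it was 0.089 without p53SYM replicate 1 and 0.24 with arrays quantile-normalized again.

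Ccnd2, a D-type cyclin that also pairs with Cdk4 and Cdk6, read 10.39, 11.23 and 11.00 in ASYM, 10.08, 10.24 and 10.26 in SYM and 10.06 and 9.83 in p53SYM. The ASYM arrays were again the highest, and they were also the most spread, with an SD of 0.44 against 0.094 in SYM and 0.16 in p53SYM. The log2 difference was 0.68 in ASYM against SYM (SE 0.183, limma adjusted p = 0.0226), the largest rise among the 9 cyclins there. It was not called by limma without ASYM replicate 2 (0.50, adjusted p = 0.0831), ASYM replicate 3 (0.62, 0.0667), SYM replicate 1 (0.63, 0.0636), SYM replicate 2 (0.70, 0.0522) or SYM replicate 3 (0.71, 0.0507). The rise against p53SYM was 0.93 (SE 0.204, limma adjusted p = 0.00771). This call was lost without p53SYM replicate 2 (0.82, limma adjusted p = 0.0749) and with the hybridization-control block (1.03, 0.157). For p53SYM against SYM the log2 difference was −0.25, with a 95% interval from −0.70 to 0.20 (−0.14 without p53SYM replicate 2 or with arrays quantile-normalized again), although both p53SYM arrays lay below all SYM arrays.

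Ccnd3, the D-type cyclin best known from lymphoid and muscle cells, read 10.35, 10.11 and 10.40 in ASYM, 10.36, 10.36 and 10.35 in SYM and 9.82 and 10.14 in p53SYM. Unlike for the other D-type cyclins, the ASYM and SYM arrays overlapped, and p53SYM replicate 1 was the lowest array. The log2 difference in ASYM against SYM was −0.069, with a 95% interval from −0.31 to 0.18, and it ran from −0.13 without ASYM replicate 3 to 0.018 without ASYM replicate 2. In p53SYM against SYM it was −0.38 (limma adjusted p = 0.0465). That call was lost without ASYM replicate 1 (−0.38, limma adjusted p = 0.0570), ASYM replicate 3 (−0.38, 0.0529), SYM replicate 1 (−0.38, 0.0883), SYM replicate 2 (−0.38, 0.104), SYM replicate 3 (−0.38, 0.0786) or p53SYM replicate 1 (−0.22, 0.316). It was also lost with the hybridization-control block (−0.38, limma adjusted p = 0.199), with the 2 compared states fitted alone (−0.38, 0.0531) and with arrays quantile-normalized again (−0.28, 0.153). A block on the replicate number ended it too (−0.35, limma adjusted p = 0.084). The difference between ASYM and p53SYM was 0.31 (limma adjusted p = 0.0798), and without ASYM replicate 2 it was 0.40 (0.0475). It was 0.15 without p53SYM replicate 1 (limma adjusted p = 0.459) and 0.47 without p53SYM replicate 2 (0.0593).

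Ccne1, which activates Cdk2 at the entry into S phase, read 8.58, 8.01 and 8.45 in ASYM, 8.32, 8.38 and 8.49 in SYM and 8.24 and 8.18 in p53SYM. The ASYM arrays spanned the values of both other states. Its log2 difference in ASYM against SYM was −0.052, with a 95% interval from −0.35 to 0.25, and ran from −0.17 without ASYM replicate 1 to 0.12 without ASYM replicate 2, with −0.0045 without SYM replicate 3. Compared with p53SYM it was 0.14, with a 95% interval from −0.20 to 0.47; it ran from 0.022 to 0.30 without these same arrays and was 0.28 with the hybridization-control block and −0.029 with arrays quantile-normalized again. In p53SYM against SYM it was −0.19, with a 95% interval from −0.53 to 0.15, and was −0.053 with arrays quantile-normalized again.

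Ccne2, the second E-type cyclin, read 8.28, 8.01 and 7.79 in ASYM, 8.64, 7.97 and 7.95 in SYM and 8.65 and 8.17 in p53SYM. Every pair of states overlapped, and in each state replicate 1 was the highest array. The log2 difference in ASYM against SYM was −0.16, with a 95% interval from −0.61 to 0.29, and ran from −0.29 without ASYM replicate 1 to 0.0635 without SYM replicate 1, with −0.28 without SYM replicate 3. Compared with p53SYM it was −0.38, with a 95% interval from −0.89 to 0.12; it was −0.15 without p53SYM replicate 1, −0.62 without p53SYM replicate 2 and −0.74 with the hybridization-control block. In p53SYM against SYM it was 0.22, with a 95% interval from −0.28 to 0.72, and ran from −0.016 without p53SYM replicate 1 to 0.46 without p53SYM replicate 2. The value was 0.10 without SYM replicate 3, 0.46 with the hybridization-control block and 0.35 with arrays quantile-normalized again.

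Ccna2, the partner of Cdk2 in S phase and of Cdk1 in G2, read 10.40, 10.28 and 10.47 in ASYM, 11.04, 11.07 and 11.19 in SYM and 11.13 and 11.03 in p53SYM. All 3 ASYM arrays lay below all 5 others, and the SYM and p53SYM arrays overlapped. In ASYM against SYM the state means of 10.39 ± 0.096 (SD, 3 arrays) and 11.10 ± 0.079 (SD, 3 arrays) gave a log2 difference of −0.71 (SE 0.0911, limma adjusted p = 0.000536). That was the largest fall among the 9 cyclins, and 1.61% of all probe sets had a lower difference. Without SYM replicate 3 it was −0.67 (limma adjusted p = 0.00290), and over all arrays left out in turn it ran from −0.76 to −0.66. The log2 difference from p53SYM was −0.69 (SE 0.102, limma adjusted p = 0.00107), and 2.19% of all probe sets had a lower one. It ran from −0.75 to −0.64 with 1 array left out, each with a limma adjusted p of at most 0.0122, and was −0.56 with the hybridization-control block (0.108). Between p53SYM and SYM the difference was −0.0185, with a 95% interval from −0.24 to 0.21, and the block put it at −0.11; it was −0.070 without p53SYM replicate 1, 0.026 without SYM replicate 3, 0.033 without p53SYM replicate 2 and 0.10 with arrays quantile-normalized again.

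The promoters of the G2/M cyclins are shown because Ccnb1 and Ccnb2 fell together in ASYM against SYM. They come from RefSeq, build GRCm38.p6, as the 250 bases before the start of each gene, which lie on the minus strand at chr13:100786487-100786736 for Ccnb1, chr9:70421555-70421804 for Ccnb2 and chr17:24251410-24251659 for Ccnf. Capitals mark CCAAT, the letters bound by NF-Y, and TTTGAA, the letters of the cell cycle homology element, searched on both strands.
Ccnb1: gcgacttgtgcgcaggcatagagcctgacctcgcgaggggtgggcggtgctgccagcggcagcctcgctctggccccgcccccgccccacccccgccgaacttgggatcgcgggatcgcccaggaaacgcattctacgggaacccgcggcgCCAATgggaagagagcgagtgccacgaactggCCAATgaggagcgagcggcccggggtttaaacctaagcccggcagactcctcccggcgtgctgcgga
Ccnb2: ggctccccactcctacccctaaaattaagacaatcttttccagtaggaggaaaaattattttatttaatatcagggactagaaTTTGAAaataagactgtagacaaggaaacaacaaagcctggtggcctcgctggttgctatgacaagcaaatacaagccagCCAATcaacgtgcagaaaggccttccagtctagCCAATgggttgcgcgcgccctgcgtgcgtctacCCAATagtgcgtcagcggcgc
Ccnf: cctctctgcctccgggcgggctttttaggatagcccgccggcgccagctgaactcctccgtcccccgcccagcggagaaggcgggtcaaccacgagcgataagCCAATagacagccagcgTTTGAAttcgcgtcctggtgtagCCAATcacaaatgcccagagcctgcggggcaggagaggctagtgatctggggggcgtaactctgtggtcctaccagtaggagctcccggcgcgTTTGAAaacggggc
CCAAT was found at 2 places in Ccnb1, at 3 in Ccnb2 and at 2 in Ccnf. Among 32851 promoters of the same length, 33.8% held CCAAT and 10.1% held it at 2 or more places. TTTGAA was found at 1 place in Ccnb2 and at 2 in Ccnf, and 16.0% of all promoters held it. The Ccnb2 match began 167 bases before the start, and its CCAAT places 87, 54 and 21 bases before it. The Ccnb1 window did not hold the letters TTTGAA, and bases after the start were not searched in any gene. Of the 9 cyclins 5 had an entry, and no window was read for Ccna2, Ccne2, Ccnd1 and Ccnd2. In the S phase and G1 groups the window of Ccne1 held neither motif, and 1 of the 2 windows of Ccnd3 held CCAAT at 1 place. The letters TTTCCCGC, TTTGGCGC and TTTCGCGC, forms of the E2F motif, were in none of these 6 windows and in 1.53% of all promoters. A match is a description of the letters and not a measured site, and a link from these letters to the cyclin values was not tested.

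Ccnb1, the principal partner of Cdk1 in mitosis, read 10.77, 10.69 and 10.72 in ASYM, 11.29, 11.10 and 11.22 in SYM and 11.21 and 11.06 in p53SYM. As for Ccna2, all 3 ASYM arrays lay below all 5 others, while SYM and p53SYM overlapped. The state means of 10.73 ± 0.042 (SD, 3 arrays) in ASYM and 11.20 ± 0.095 (SD, 3 arrays) in SYM gave a log2 difference of −0.47 (SE 0.0896, limma adjusted p = 0.00443). It was −0.46 without SYM replicate 3 (limma adjusted p = 0.0170), and with 1 array left out in turn it ran from −0.52 to −0.43. The log2 difference from p53SYM was −0.40 (SE 0.100, limma adjusted p = 0.0133). That call was lost without p53SYM replicate 1 (−0.33, limma adjusted p = 0.0878) and with the hybridization-control block (−0.38, 0.272). Between p53SYM and SYM it was −0.067, with a 95% interval from −0.29 to 0.16, and was −0.14 without p53SYM replicate 1, 0.0067 without p53SYM replicate 2 and 0.044 with arrays quantile-normalized again.

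Ccnb2, the B-type cyclin found mainly at the Golgi, with the 3 CCAAT places in its window above, read 9.94, 9.92 and 10.04 in ASYM, 10.49, 10.60 and 10.47 in SYM and 9.91 and 9.83 in p53SYM. It differed from Ccnb1 in the p53SYM state: both p53SYM arrays lay below every ASYM array and every SYM array. The log2 difference in ASYM against SYM was −0.55 (SE 0.0854, limma adjusted p = 0.00144), and it was −0.58 without SYM replicate 3 (0.00493). In p53SYM against SYM it was −0.65 (SE 0.0955, limma adjusted p = 0.000903), the largest fall among the 9 cyclins in that comparison, and 6.50% of all probe sets had a lower one. This value was −0.67 without SYM replicate 3 (limma adjusted p = 0.00266) and −0.60 with the hybridization-control block (0.0176), in which SYM replicate 3 is the only SYM array that bears on it. Between ASYM and p53SYM the difference was 0.0975, with a 95% interval from −0.11 to 0.31, and was 0.057 without p53SYM replicate 2, 0.028 with the hybridization-control block and −0.013 with arrays quantile-normalized again.

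Ccnf, the F-box cyclin that directs ubiquitination and binds no CDK, read 8.41, 7.96 and 8.48 in ASYM, 8.66, 8.75 and 8.53 in SYM and 8.63 and 8.73 in p53SYM. All ASYM arrays lay below all others, but ASYM replicate 2 stood well below its replicates, and limma did not call the gene. The log2 difference was −0.36 in ASYM against SYM, with a 95% interval from −0.66 to −0.061 (limma adjusted p = 0.0854). It was −0.20 without ASYM replicate 2 (limma adjusted p = 0.261) and −0.46 without ASYM replicate 3 (0.0476). Compared with p53SYM it was −0.39, with a 95% interval from −0.72 to −0.058 (limma adjusted p = 0.0707). Without ASYM replicate 2 it was −0.23 (limma adjusted p = 0.170), without ASYM replicate 3 −0.49 (0.0409), and with arrays quantile-normalized again −0.54 (0.0296). Between p53SYM and SYM it was 0.032, with a 95% interval from −0.30 to 0.37, and ran from −0.026 without SYM replicate 3 to 0.084 without SYM replicate 2. It was 0.15 both with the hybridization-control block and with arrays quantile-normalized again.

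By phase, the median log2 difference in ASYM against SYM was 0.31 over the 3 G1 cyclins, −0.16 over the 3 S phase cyclins and −0.47 over the 3 G2/M cyclins, beside −0.058 over all probe sets. The S phase median ran from −0.29 without ASYM replicate 1 to −0.089 without SYM replicate 1, and was −0.28 without SYM replicate 3. All ASYM arrays lay below all SYM arrays for 3 of the 3 G2/M cyclins, beside 21.8% of all probe sets, and above them for 2 of the 3 G1 cyclins, beside 16.2%. The medians of ASYM against p53SYM were 0.31, −0.38 and −0.39, beside −0.061 over all probe sets. The S phase median was −0.15 there without p53SYM replicate 1 and −0.62 without p53SYM replicate 2, the G1 median was 0.47 without p53SYM replicate 2, and the G2/M median was −0.23 without ASYM replicate 2. For p53SYM against SYM the medians were −0.25, −0.0185 and −0.067, beside 0.036 over all probe sets, and with arrays quantile-normalized again the S phase median was 0.10 and the G2/M median 0.044. In that comparison the G1 median was −0.31 without SYM replicate 1 and −0.14 without p53SYM replicate 2, and the G2/M median was −0.14 without p53SYM replicate 1 and −0.0165 without p53SYM replicate 2. The S phase median there was −0.070 without p53SYM replicate 1, 0.033 without p53SYM replicate 2, 0.026 without SYM replicate 3 and −0.11 with the hybridization-control block. In the S phase group Ccna2 was called lower in both comparisons with ASYM, and Ccne1 and Ccne2 were not called in any. The difference between these genes was not tested. In ASYM against p53SYM the hybridization-control block put Ccna2 at −0.56 and Ccne2 at −0.74, and neither was called. In the G2/M group of p53SYM against SYM, Ccnb2 was called lower, with a 95% interval from −0.86 to −0.44. The intervals of Ccnb1 (−0.29 to 0.16) and Ccnf (−0.30 to 0.37) held 0 and lay above it.

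**Figure D4:**
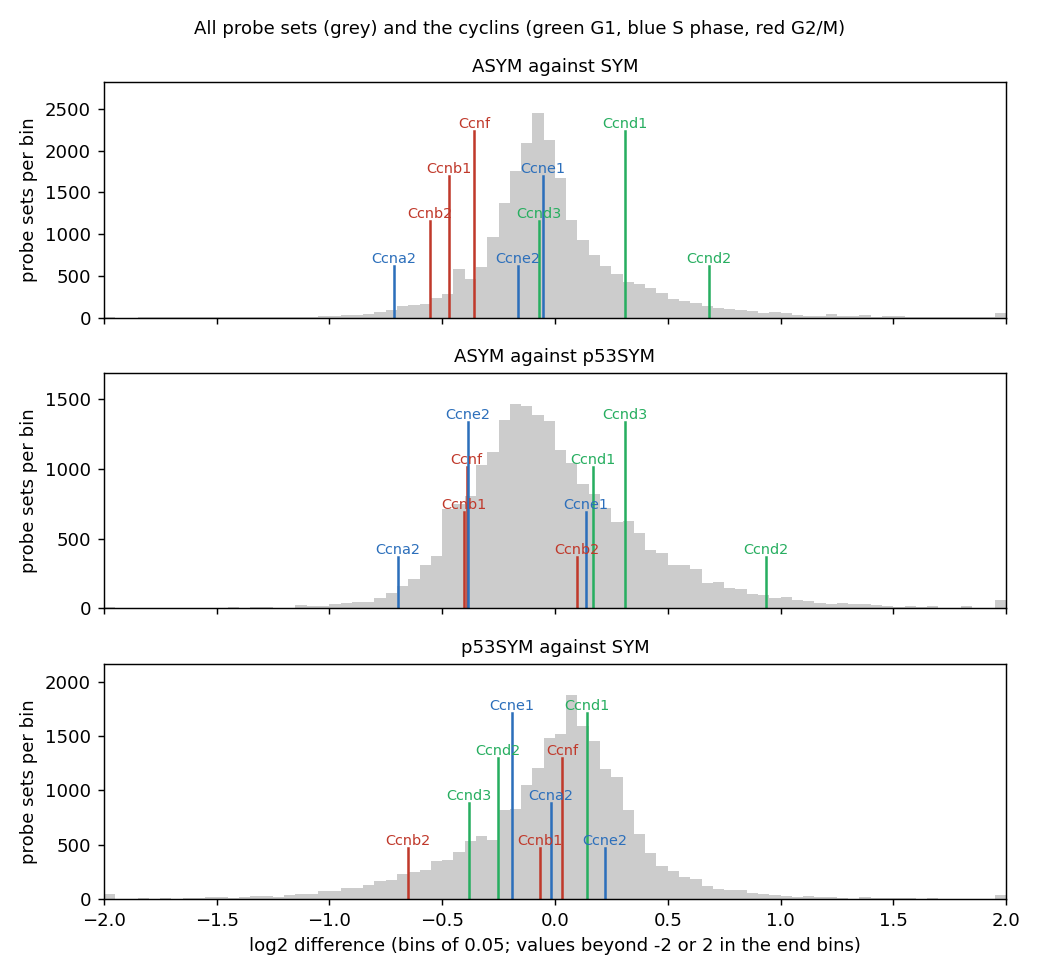
Number of probe sets in bins of 0.05 log2 units of the difference, over all 22523 probe sets (grey), with the 9 cyclins marked by coloured lines whose heights have no meaning. In ASYM against SYM the G2/M cyclins and Ccna2 lie to the left of most probe sets and Ccnd1 and Ccnd2 to the right.

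The genes whose values over the 8 arrays were most like those of each cyclin were found by Pearson's r among 14075 named probe sets above the dimmest 25%, and are named for 4 cyclins fixed in the naming rule. For Ccna2 these were Cenpa (r = 0.993), Kif23 (0.990) and Banf1 (0.989). For Ccnb1 they were Ttk (r = 0.997), Dcp2 (0.989) and Wdr76 (0.989). For Ccnd1 they were Zfp260 (r = 0.995), Ube2b (0.988) and Atp6v1e1 (0.986), and for Ccne1 Brd2 (0.975), Eps15l1 (0.958) and 2810004N23Rik (0.957). For the other 5 cyclins the highest r ran from 0.958 for Ccnf to 0.992 for Ccnb2. The 8 arrays fall into 3 states, so these values describe a shared order of the arrays.

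The partners and regulators of the cyclins were read from lists. In ASYM against SYM, where 10.9% of all probe sets were called higher and 11.0% lower, 38 of the 83 genes of the lists were called, and 32 were without SYM replicate 3. Of these lists, 3 of 5 CDK partners fell: Cdk6 by 0.77 (limma adjusted p = 0.00854), Cdk1 by 0.56 (0.00184) and Cdk2 by 0.33 (0.0172), and Cdk2 was not called without ASYM replicate 2 (−0.29, limma adjusted p = 0.0668) or SYM replicate 1 (−0.30, 0.0511). Cdk1, the kinase of the B-type cyclins, read 12.01, 11.77 and 11.93 in ASYM, 12.47, 12.42 and 12.51 in SYM and 11.89 and 11.85 in p53SYM. Both lines with the p53 cDNA were thus below SYM, as for Ccnb2. Cdk4 had a log2 difference of 0.091 (0.038 without ASYM replicate 1, 0.048 without SYM replicate 1), with 11.74 to 12.02 on all 8 arrays. Among 8 enzymes that modify CDKs, 4 fell, namely the phosphatases Cdc25c (−1.04) and Cdc25a (−0.50), the kinase Pkmyt1 (−0.53) and Mnat1 (−0.47), a subunit of the CDK-activating kinase. Among 6 CDK inhibitors, Cdkn1a (3.81), Cdkn2b (0.97) and Cdkn2a (0.69) rose and Cdkn2c (−0.59) fell. Cdkn1a, the p53-induced inhibitor p21, read 9.70, 9.70 and 9.59 in ASYM, 5.73, 5.81 and 6.03 in SYM and 7.55 and 7.33 in p53SYM. The p53SYM arrays lay between the other states. Of the cyclins, Ccna2, Ccnb1, Ccne2 and Ccnf in p53SYM overlapped SYM, Ccnb2, Ccnd2, Ccnd3 and Ccne1 lay below it and Ccnd1 lay above it. The limma call of Cdkn2a was lost without ASYM replicate 2 (0.41, adjusted p = 0.0528), SYM replicate 1 (0.70, 0.0676), SYM replicate 2 (0.72, 0.0712) or SYM replicate 3 (0.66, 0.0980).

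In the same comparison, 9 of 21 E2F, RB and DREAM regulators fell and 1 rose, with a list median of −0.33. The largest were Mybl2 (−1.52, limma adjusted p = 0.000228), a transcription factor of the G2/M cyclin genes, Rb1 (0.77, 0.0214), E2f8 (−0.75, 0.00183) and E2f7 (−0.55, 0.0450). Rb1 was 0.48 without ASYM replicate 2 (limma adjusted p = 0.0240), and was not called without SYM replicate 2 (0.78, 0.0548) or SYM replicate 3 (0.75, 0.0630). E2f7 was not called without ASYM replicate 2 (−0.40, limma adjusted p = 0.165), ASYM replicate 3 (−0.53, 0.103), SYM replicate 1 (−0.40, 0.129), SYM replicate 2 (−0.61, 0.0683) or without 1 or both p53SYM replicates (−0.55, 0.0633). Foxm1 had a log2 difference of −0.41 (limma adjusted p = 0.0954), which was −0.55 without ASYM replicate 1 (0.0384) and −0.21 without ASYM replicate 2 (0.271). Of 22 genes of cyclin destruction, 7 fell and 1 rose (Anapc2, 0.48, named after its values were seen), and the largest falls were Cdc23 (−0.93), Skp2 (−0.79), Fbxo5 (−0.76) and Cdc20 (−0.59). Of 15 other cyclins, Ccng1 (2.91) and Ccng2 (1.26) rose and Ccny (−0.42) fell. Ccng1, a p53 target, read 11.79, 12.42 and 12.07 in ASYM, 9.14, 9.20 and 9.22 in SYM and 10.93 and 10.77 in p53SYM. Of 7 proliferation genes 6 fell, among them Mcm5 (−0.86), Tk1 (−0.86), Top2a (−0.65) and Mcm3 (−0.53). Called lower were 4 of the 7 without ASYM replicate 2 or any single SYM replicate, when Mcm2 and Tyms, named after their values were seen, were not called. The list medians were −0.33 for CDK partners, −0.34 for CDK-modifying enzymes, 0.42 for CDK inhibitors, −0.20 for cyclin destruction, −0.090 for other cyclins and −0.53 for proliferation genes, beside −0.058 over all probe sets. Without ASYM replicate 2 the median was 0.26 for CDK inhibitors and −0.22 for the regulators. For other cyclins it was −0.044 without ASYM replicate 3 and −0.054 with arrays quantile-normalized again, and for CDK inhibitors 0.69 among probe sets above the 25th percentile.

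The same lists were read in ASYM against p53SYM, where genes not named above were chosen after their values were seen. In the fit of all 8 arrays 15.6% of all probe sets were called higher and 15.5% lower, and 36 of the 83 genes of the lists were called, against 35 without SYM replicate 3. Fewer of all probe sets were called without either p53SYM replicate, so calls lost in those fits are not set apart from that general loss. With the hybridization-control block 3.14% of all probe sets and 6 of the 83 genes were called; of the genes called and named below, these were Cdc25b, Cdc25c, Cdkn1a and Ccng1. Of the 5 CDK partners limma called 0, with 1 at an unadjusted p under 0.05 and 0 by rank product. Of the 8 CDK-modifying enzymes Cdk7 was higher and Cdc25b, Cdc25c and Wee1 lower, and Cdk7 was not called without p53SYM replicate 2 (0.34, limma adjusted p = 0.121). With the block the limma adjusted p was 0.346 for Cdk7 and 0.0962 for Wee1. Of the 6 inhibitors Cdkn1a (2.22), Cdkn2a (1.51) and Cdkn2b (1.05) were higher and Cdkn2c (−0.74) and Cdkn1c lower. The limma adjusted p with the block was 0.0975 for Cdkn2a, 0.114 for Cdkn2b, 0.0992 for Cdkn2c and 0.500 for Cdkn1c. Cdkn1c was dim, with a mean of 3.81 and 12.8% of probe sets below it, and 10 of 15 alternatives ended its call. The inhibitors called lower were 1 in number when any array other than p53SYM replicate 1 was left out. Of the 21 regulators Rb1, E2f5, Rbl2 and Nfyb were higher and E2f2, Tfdp1, Rbl1 and Nfya lower, with 2 higher without either p53SYM replicate and 2 lower without ASYM replicate 2 or p53SYM replicate 1. With the block limma called 0 of the 21, with 2 higher and 5 lower at an unadjusted p under 0.05 and adjusted p from 0.0727 for Rbl1 to 0.675 for E2f5 among these 8; rank product, which has no block, called 0. Of 16 alternatives, 5 ended the call of E2f2, 6 that of E2f5 and 5 that of Nfya. Rb1 (0.84, limma adjusted p = 0.0201) was 0.55 without ASYM replicate 2 (0.0165) and was not called without p53SYM replicate 1 (0.89, 0.0646) or p53SYM replicate 2 (0.78, 0.123), and was 0.79 with the block (0.324). Of the 22 destruction genes 6 were higher and 6 lower; 2 were lower without ASYM replicate 2 or either p53SYM replicate, and 1 was higher and 1 lower with the block. Of the 15 other cyclins Ccng1 (1.24) was higher and Ccna1, Ccnb3, Ccni and Ccnl1 lower, with 2 lower without ASYM replicate 1, ASYM replicate 2 or SYM replicate 2 and 1 without ASYM replicate 3 or p53SYM replicate 2. Ccna1 and Ccnb3 were dim, with means of 3.62 and 3.55 and 8.0% and 6.2% of probe sets below them, and 2 were called lower among probe sets above the 25th percentile. With the 2 compared states fitted alone 1 was lower. The limma adjusted p with the block was 0.363 for Ccna1, 0.567 for Ccnb3, 0.204 for Ccni and 0.102 for Ccnl1. Alternatives that ended a call numbered 9 for Ccna1, 6 for Ccnb3, 8 for Ccni and 1 for Ccnl1. Mcm3 and Tyms were the 2 of 7 proliferation genes called, both lower. Mcm3 (−0.50, limma adjusted p = 0.0128) was not called without p53SYM replicate 1 (−0.45, 0.0734) or p53SYM replicate 2 (−0.55, 0.0565), nor was Tyms (−0.635 at 0.0538 and −0.58 at 0.0914). Neither was called with the block (−0.49 at 0.251 for Mcm3 and −0.71 at 0.184 for Tyms).

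Between p53SYM and SYM 3 of the 5 CDK partners fell: Cdk1 (−0.60, limma adjusted p = 0.00199), Cdk2 (−0.41, 0.00912) and Cdk6 (−1.15, 0.00158) were called, beside 15.1% of all probe sets called lower and 10.2% higher. Cdk4 had a log2 difference of −0.0126, which ran from −0.056 to 0.0155 with 1 array left out, and Cks1b one of 0.22 (limma adjusted p = 0.117). In this comparison 34 of the 83 genes of the lists were called, 28 were without SYM replicate 3, and 16 were with the hybridization-control block, beside 13.6% of all probe sets. Here too limma called fewer of all probe sets without either p53SYM replicate. Cdk2 was not called without p53SYM replicate 1 (−0.36, limma adjusted p = 0.0656) or with the block (−0.39, 0.0806). Of the inhibitors Cdkn1a (1.59) rose and Cdkn2a (−0.81, limma adjusted p = 0.0250) fell, and 2 rose without p53SYM replicate 1. Cdkn2a was not called without SYM replicate 1 (−0.81, limma adjusted p = 0.0542), SYM replicate 2 (−0.78, 0.0671) or p53SYM replicate 2 (−0.63, 0.197). Nor was it with the block (−0.74, limma adjusted p = 0.169) or with arrays quantile-normalized again (−0.69, 0.0584). Of the 21 regulators 8 fell, Mybl2 (−1.12, limma adjusted p = 0.00192) among them, and 5 fell without p53SYM replicate 1, 3 without p53SYM replicate 2 and 2 with the block. Of the 8 CDK-modifying enzymes Cdc25b and Wee1 rose and Cdk7, Mnat1 and Pkmyt1 fell, with 2 and 5 at an unadjusted p under 0.05 and 0 by rank product. No rise was called by limma without SYM replicate 1, SYM replicate 3 or either p53SYM replicate, and 1 was without ASYM replicate 3 or SYM replicate 2. No fall was called without SYM replicate 2 or p53SYM replicate 2, and 1 was without ASYM replicate 3, SYM replicate 1 or SYM replicate 3. With the block the limma adjusted p was 0.0936 for Wee1, 0.257 for Cdk7, 0.145 for Mnat1 and 0.121 for Pkmyt1. Of 16 alternatives, 4 ended the call of Cdc25b, 9 that of Wee1, 7 those of Cdk7 and Pkmyt1 and 11 that of Mnat1. Of the destruction genes 7 fell, with 4 without p53SYM replicate 2 and 3 with the block, and Anapc1 rose. Of the other cyclins Ccng1 (1.67), Ccng2 (1.36), Ccni, Ccnl1 and Ccnt2 rose and Ccnk fell (−0.47, limma adjusted p = 0.0489). The call of Ccnk was lost under 10 of 16 alternatives, among them the block (−0.38, limma adjusted p = 0.289), arrays quantile-normalized again (−0.40, 0.120) and the fits without ASYM replicate 1 (−0.47, 0.0636), SYM replicate 2 (−0.35, 0.149), SYM replicate 3 (−0.51, 0.0611), p53SYM replicate 1 (−0.31, 0.288) or p53SYM replicate 2 (−0.62, 0.0603). Ccnt2 was not called without SYM replicate 3 (0.36, limma adjusted p = 0.0509) or p53SYM replicate 1 (0.35, 0.123). In the list of other cyclins no fall was called without ASYM replicate 1, SYM replicate 2, SYM replicate 3 or p53SYM replicate 2, while 3 were without ASYM replicate 2 and 2 without ASYM replicate 3. Of the proliferation genes Mcm5 (−0.75) and Tk1 (−0.51, limma adjusted p = 0.0136) fell, with 4 falls without ASYM replicate 2 and 1 rise without SYM replicate 1. Tk1 was not called without p53SYM replicate 1 (−0.49, limma adjusted p = 0.0719) or p53SYM replicate 2 (−0.53, 0.0689) or with the block (−0.45, 0.124), each of which left 1 fall. Cks1b, Cdk7, Cdc25b, Wee1, Anapc1, Ccni, Ccnl1, Ccnt2 and Ccnk were named after their values were seen.

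**Figure D5:**
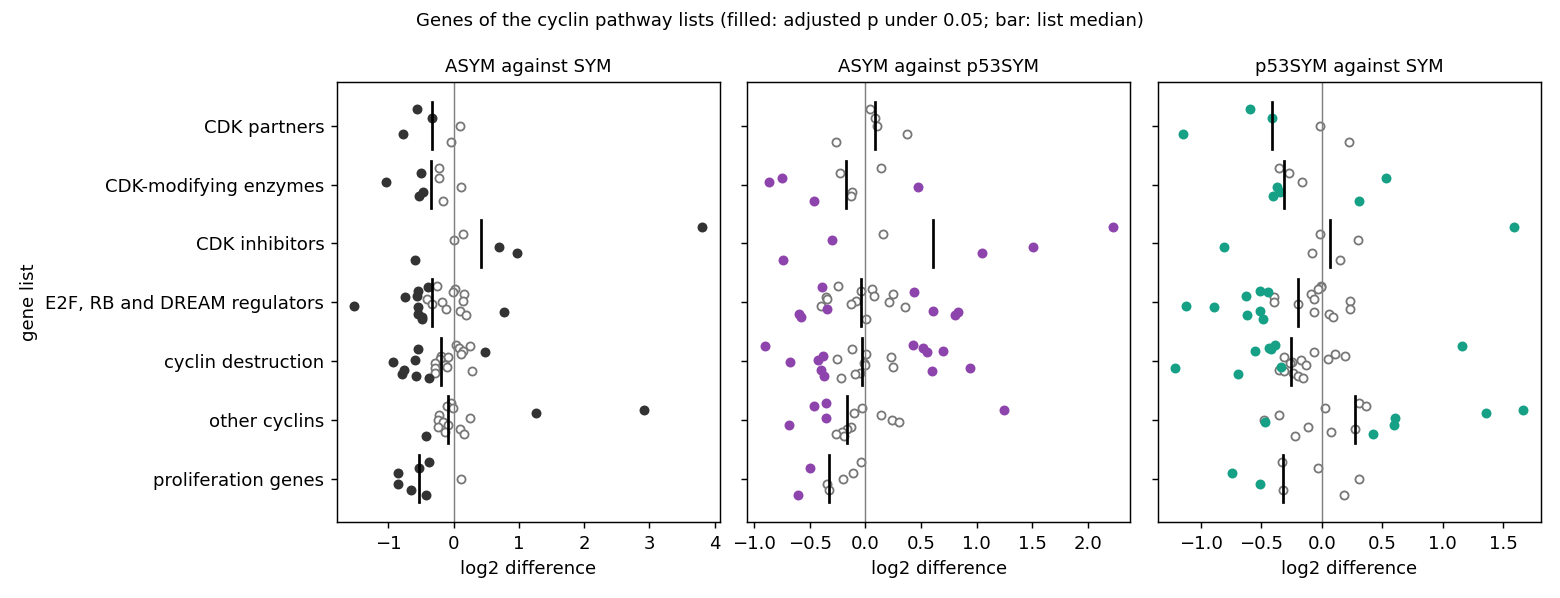
Log2 differences of the genes of 7 lists in the 3 comparisons, 1 point per gene, filled where the limma adjusted p was under 0.05, with a bar at the list median. Cdkn1a and Ccng1 are the points farthest to the right in ASYM against SYM, and most filled points of the E2F, RB and DREAM regulators lie to the left.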

How the data were processed

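RNA of 8 cell samples was hybridized to Affymetrix mouse whole-genome arrays. The authors ran RMA with a RefSeq-based probe set definition, and deposited log2 values; no scanner files were used. States came from the sample labels. Tests covered 22523 probe sets, without 64 controls. Names, and the promoters shown, came from RefSeq tables of GRCm38.p6; 18294 probe sets (81.2%) were named. Differences were fitted with limma 3.58.1 (R 4.3.3) on all 8 arrays, with 3 contrasts and Benjamini-Hochberg adjustment (adjusted p under 0.05). The methods' rank product test was written anew in Python 3.11.15 with 100 permutations (pfp under 0.05). Both were tested on simulated data.

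The members and lists were chosen with earlier results of these data known. The naming rule took the 9 cyclins, 5 label checks, 10 fixed regulators and, per list, up to 4 called genes with the largest difference in ASYM against SYM; other list genes were named after their values were seen. Genes of similar pattern were sought for all 9 cyclins; the rule names them for Ccnb1, Ccna2, Ccnd1 and Ccne1. Cks2, Cdkn2d, Lin52, Nfyc, Pcna, Mki67 and Cd68 were not analysed here. Alternatives were a replicate block, a hybridization-control block, a trend in the prior, 2 compared groups only, repeated normalization, median centring, probe sets above the 25th percentile, distinct profiles once, stricter thresholds (adjusted p or pfp under 0.01, or a log2 difference of at least 1), the mean of distinct probe sets, independently permuted rankings and each array left out.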

Additional observations from a re-analysis of the deposited data

How the results depend on the processing

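Of 486 values of single cyclins under the alternatives, 428 kept their direction and side of the threshold, 40 lost a call, 4 gained one and 14 changed sign. The 428 include values never called, so they do not measure how often calls held. Under 16 alternatives at the same threshold, Ccna2, Ccnb1 and Ccnb2 kept their calls in ASYM against SYM in 16, Ccnd1 in 11 and Ccnd2 in 10. In ASYM against p53SYM Ccna2 kept its call in 15, and Ccnb1 and Ccnd2 in 14. In p53SYM against SYM Ccnb2 kept it in 16 and Ccnd3 in 6. Unless stated otherwise, the cause of a change was not tested. The mean of distinct probe sets is the value itself, since each cyclin has 1.

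Whether the replicate numbers pair the samples could not be settled. Deviations of ASYM and SYM arrays with the same number correlated at 0.270, 0.029 and 0.381, and those with different numbers at −0.408 to 0.117. ASYM replicate 2 correlated best with SYM replicate 1 (0.117). Same-number values were 0.009 and −0.225 for ASYM and p53SYM, and 0.205 and 0.042 for p53SYM and SYM. With the replicate number as a block, p53SYM against SYM had 1 cyclin called, Ccnb2, beside 28.3% of all probe sets. Ccnd3 was at −0.35 there (limma adjusted p = 0.0840), the G1 median at −0.20 and Ccna2 at 0.026. The block left 5 and 3 cyclins called in ASYM against SYM and ASYM against p53SYM, beside 23.9% and 37.0%.

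With the hybridization-control block limma called 3, 0 and 1 cyclins in ASYM against SYM, ASYM against p53SYM and p53SYM against SYM. These counts stood beside 16.2%, 3.14% and 13.6% of all probe sets, and 6, 2 and 1 cyclins had an unadjusted p under 0.05. In the last comparison the G1 median was −0.31 and the S phase median −0.11. That block gave 1, 13 and 6 of the 83 list genes the other sign, none of them called in the fit of all arrays; among the genes of the naming rule these were Cdk6 (−0.15) and E2f7 (−0.21) in ASYM against p53SYM and Cdkn2b (0.029) in p53SYM against SYM. Impdh1, a label check, was 0.0148 in ASYM against p53SYM.

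With arrays quantile-normalized again, p53SYM against SYM had 1 cyclin called, beside 23.8% of all probe sets. The medians there were −0.14 (G1), 0.10 (S phase) and 0.044 (G2/M). Ccna2 was at 0.10, Ccnb1 at 0.044, Cdk4 at 0.0925, Foxm1 at 0.060, Mcm3 at 0.079, Mt1 at 0.20 and Rb1 at 0.0285. In ASYM against p53SYM the repeated normalization gave medians of 0.21 (G1) and −0.53 (G2/M). Ccnb2 was at −0.0131, Ccne1 at −0.0288, Cdk1 at −0.0971, Cdk2 at −0.0322, Cdk4 at −0.0302, E2f7 at −0.0592 and Mt1 at −0.0887.

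At an adjusted p under 0.01, limma called 3, 2 and 1 cyclins in the 3 comparisons, beside 12.1%, 14.5% and 13.9% of all probe sets. With a log2 difference of at least 1 as well as an adjusted p under 0.05 it called 0 in each comparison, beside 2.06%, 3.02% and 3.26%, by the stricter rule itself, where 6, 5 and 2 had an unadjusted p under 0.05 and rank product called 0. With the 2 compared groups only, 1 was called in p53SYM against SYM, beside 23.3% of all probe sets. With each ranking permuted independently, the rank product test called 4, 2 and 1, beside 20.8%, 14.4% and 14.2%.

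Among the list genes, arrays quantile-normalized again left Cdkn1c, E2f2, E2f5, Ccna1 and Ccnb3 uncalled in ASYM against p53SYM, and Pkmyt1, Mnat1 and Ccnk in p53SYM against SYM. In ASYM against p53SYM that gave 1 CDK partner, 1 inhibitor and 4 proliferation genes called lower, and in p53SYM against SYM 1 CDK-modifying enzyme and 5 regulators lower and 1 CDK partner, 1 regulator and 1 proliferation gene higher. The 2 compared groups only gave 1 inhibitor and 1 other cyclin lower in ASYM against p53SYM and 1 CDK-modifying enzyme each way in p53SYM against SYM, as did the replicate block, with which 2 other cyclins were lower in ASYM against p53SYM. A trend in the prior left Cdk7 and Ccnk uncalled in p53SYM against SYM, where 2 inhibitors were higher. Among probe sets above the 25th percentile 1 inhibitor was lower in ASYM against p53SYM, and 2 other cyclins were lower in p53SYM against SYM, as with distinct profiles once. Destruction genes called higher in ASYM against SYM were 2 with the replicate block, the trend or that filter, and 1 CDK partner was lower in ASYM against p53SYM with the trend, the filter or median centring.

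With 1 ASYM or SYM array left out in turn, limma called 3 to 5 cyclins in ASYM against SYM. It called 3 to 4 in ASYM against p53SYM and 1 to 2 in p53SYM against SYM. In the same order, 3493 to 4445, 5120 to 7261 and 4222 to 5625 of all 22523 probe sets were called. Fits that leave 1 p53SYM array are not counted here. With any of the 8 arrays left out in turn, the ranges in ASYM against SYM were −0.13 to 0.0177 for Ccnd3, −0.17 to 0.115 for Ccne1, −0.29 to 0.0635 for Ccne2 and −0.0132 to 0.16 for Impdh1. The S phase median ran from −0.29 to −0.089 there. For ASYM against p53SYM they were 0.22 to 0.47 for the G1 median, −0.62 to −0.15 for the S phase median, −0.43 to −0.23 for the G2/M median, −0.35 to 0.0813 for Ccng2, −0.0164 to 0.10 for Cdk1, −0.10 to 0.225 for E2f7, −0.13 to 0.0416 for Impdh1 and −0.20 to 0.0124 for Skp2. For p53SYM against SYM they were −0.31 to −0.14 for the G1 median, −0.0704 to 0.0333 for the S phase median, −0.14 to −0.0165 for the G2/M median, −0.0704 to 0.0333 for Ccna2, −0.14 to 0.0067 for Ccnb1, −0.0158 to 0.46 for Ccne2, −0.0261 to 0.0844 for Ccnf, −0.0559 to 0.0155 for Cdk4, −0.17 to 0.0436 for Foxm1, −0.0819 to 0.018 for Mcm3 and −0.26 to 0.0443 for Mt1. A p53SYM array left out leaves 1, which is assumed to vary like the other states.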
